A study of Ovis aries with 12 samples.

Results

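Axon guidance ligands and receptors were followed in hippocampus of adult ewes of the Ile-de-France breed, a French sheep breed. The genes were chosen by family symbol: semaphorins, plexins, neuropilins, Slits, Robo receptors, netrins, the netrin receptors DCC and UNC5, ephrins and Eph receptors. The count table held 66 such genes of 33609 genes in all, 35 ligands and 31 receptors. Counts of 65 of them were high enough to be tested, among 17806 tested genes, and the netrin gene NTN5 was left out for low counts.

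Growing axons read guidance ligands as attraction or repulsion. Semaphorins act through plexins, often with a neuropilin as co-receptor, Slits repel through Robo receptors, netrins attract through DCC and repel through UNC5 receptors, and ephrins bind Eph receptor tyrosine kinases on neighbouring cells. Many of these genes stay active in the adult brain, where in rodents they take part in mossy fibre layout, dendritic spine form and synapse maintenance in the hippocampus.

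RNA came from 12 ewes, 6 kept under chronic stress and 6 under control conditions, and the stressor is not described in the sources used here. Dorsal and ventral hippocampus were taken from every ewe, and equal amounts of RNA from 2 ewes were mixed for each library. The 4 groups were dorsal stress, dorsal control, ventral stress and ventral control, with 3 libraries each. Dorsal libraries carry the prefix DG, which the series record gives for dorsal, and whether only the dentate gyrus was dissected is not stated. The same ewes gave both regions, yet the tests treat all 12 libraries as independent, and differences between single ewes are averaged within a pool.

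Library totals ranged from 12254743 to 53775720 counts, and every dorsal stress library was shallower than every dorsal control library. Levels are given as CPM, counts scaled to library size, and at these depths 1 CPM stands for 12.3 to 53.8 counts. The guidance genes together took 0.212% to 0.320% of the counts of a library. Pyramidal and excitatory neuron markers (SLC17A7, NEUROD6, NEUROD2 and ZBTB20) were present throughout, summing to 1280 to 1621 CPM in dorsal and 765 to 1279 CPM in ventral libraries. All levels below are CPM scaled with TMM factors, a correction for library composition, listed for libraries 1 to 3 of each group. The 4 group labels stand for the groups' libraries. Differences are log2 fold changes with their standard error (SE), and a gene was called where the edgeR quasi-likelihood p, adjusted by the Benjamini-Hochberg method over all tested genes, was under 0.05.

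The first comparison set dorsal against ventral hippocampus over both conditions. Of the 65 tested guidance genes 18 were called, 7 higher and 11 lower in dorsal tissue, which is 27.7% of them. Among all tested genes 4.51% were called, 1.44% higher and 3.07% lower. An unadjusted p under 0.05 was found for 31 guidance genes (47.7%), against 13.7% of all tested genes. Calls fell on 8 of 34 tested ligands and 10 of 31 tested receptors. All were of the semaphorin, Slit and ephrin systems, with 0 of 4 Robo receptors and 0 of 8 tested netrins and netrin receptors called. The median log2 fold change was -0.16 over the guidance genes and -0.02 over all tested genes, and the median size regardless of sign was 0.39 against 0.19. The guidance genes were somewhat more abundant than the average tested gene, with a median of 4.89 against 4.23 on the log2 CPM scale. Among genes with a mean log2 CPM of at least 1, 30% of 60 guidance genes and 4.59% of all genes were called. In bulk tissue, fewer cells of a type and less RNA per cell cannot be told apart.

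**Figure D1:**
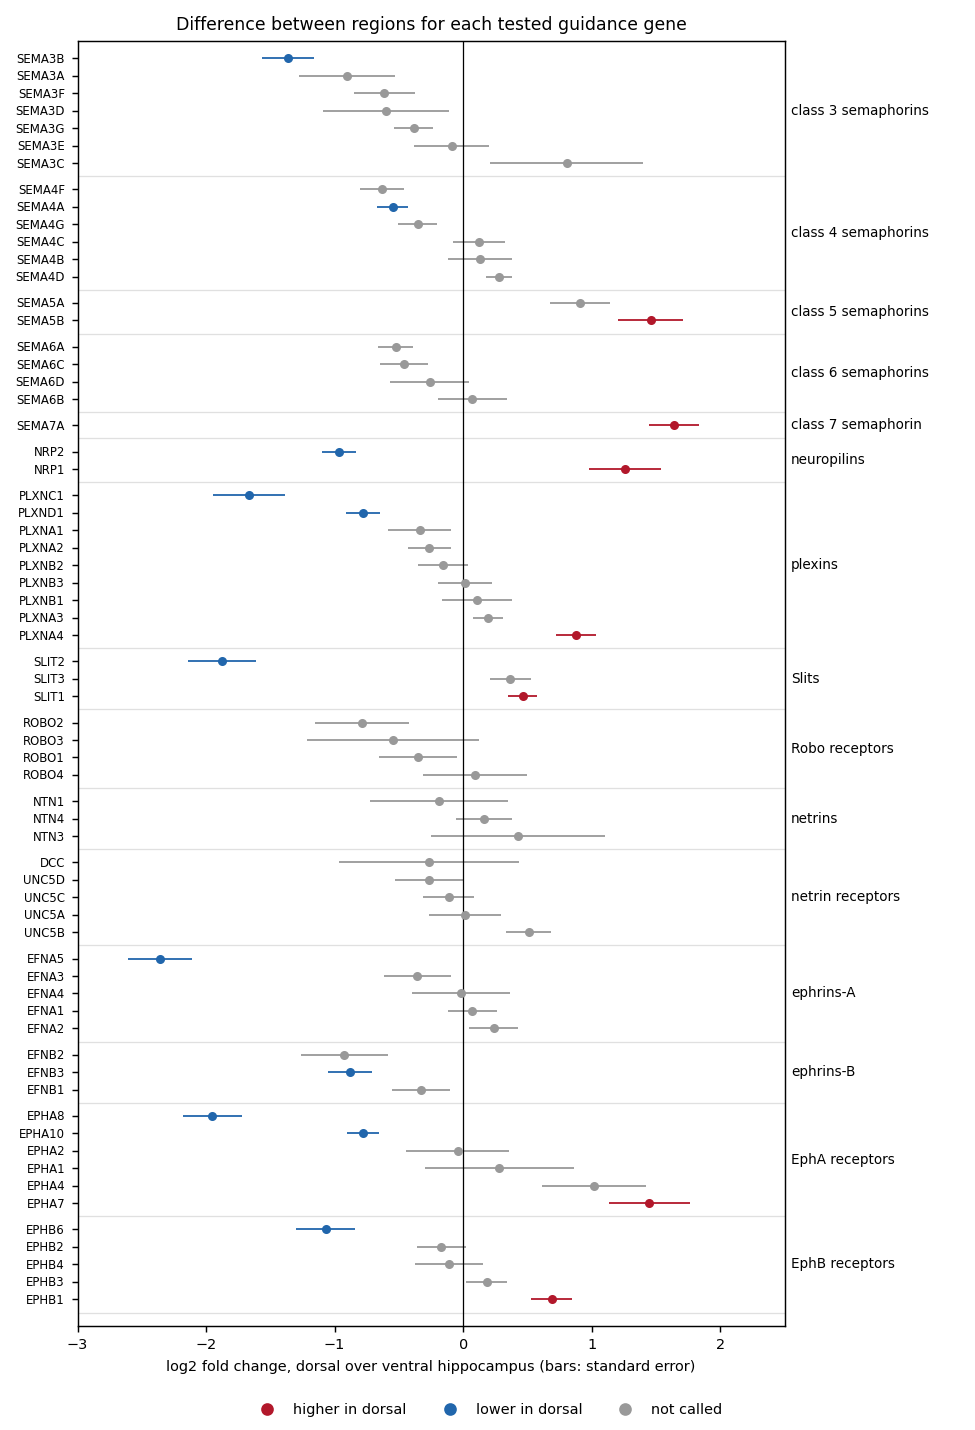
Log2 fold change of each of the 65 tested guidance genes, dorsal over ventral hippocampus, grouped by family, with bars for the SE. The 7 red genes were called higher and the 11 blue genes lower in dorsal tissue, and the values run from -2.36 for EFNA5 to 1.64 for SEMA7A.

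Semaphorin ligands moved both ways. SEMA7A, a membrane-anchored semaphorin that binds the plexin PLXNC1, had the most positive difference of all guidance genes. SEMA7A had 133, 138 and 161 CPM in dorsal stress and 101, 113 and 109 CPM in dorsal control, against 63.8, 29.6 and 44.6 CPM in ventral stress and 45.1, 29.7 and 29.2 CPM in ventral control. The lowest dorsal library, at 101 CPM, stood above the highest ventral one, at 63.8 CPM. The log2 fold change was 1.64 ± 0.20 (SE, edgeR adjusted p = 0.00151), a 3.12-fold higher level. SEMA5B, a transmembrane semaphorin with thrombospondin repeats, was also higher. Levels of SEMA5B were 138, 105 and 107 CPM in dorsal stress and 156, 92.7 and 96.1 CPM in dorsal control, and 60.6, 34.1 and 36.4 CPM in ventral stress and 61.9, 33.8 and 26.0 CPM in ventral control. The highest ventral library lay below the lowest dorsal one, and library 1 was the highest in each of the 4 groups. Its log2 fold change was 1.46 ± 0.26 (SE, edgeR adjusted p = 0.00952). Its relative SEMA5A had 0.91 ± 0.23 and was not called (adjusted p = 0.0561).

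The secreted SEMA3B, which signals through neuropilins, was lower in dorsal tissue. In dorsal stress SEMA3B stood at 14.6, 11.6 and 11.1 CPM and in dorsal control at 13.5, 12.8 and 17.0 CPM, against 32.8, 44.7 and 29.1 CPM in ventral stress and 32.4, 45.8 and 22.0 CPM in ventral control. The regions did not overlap, and the log2 fold change was -1.36 ± 0.20 (SE, edgeR adjusted p = 0.00450). SEMA4A, a transmembrane ligand that binds plexins, showed a small and even difference. SEMA4A had 30.2, 23.3 and 26.6 CPM in dorsal stress and 26.5, 22.4 and 24.6 CPM in dorsal control, against 38.8, 37.7 and 36.6 CPM in ventral stress and 39.6, 37.7 and 34.5 CPM in ventral control. The 6 dorsal values lay between 22.4 and 30.2 CPM and the 6 ventral ones between 34.5 and 39.6 CPM, for a log2 fold change of -0.55 ± 0.12 (SE, edgeR adjusted p = 0.0258). The other 6 class 3 genes (SEMA3A, SEMA3C, SEMA3D, SEMA3E, SEMA3F and SEMA3G) had log2 fold changes from -0.90 to 0.80 and the other 5 class 4 genes (SEMA4B, SEMA4C, SEMA4D, SEMA4F and SEMA4G) from -0.63 to 0.28, with no call. SEMA4D, which also acts as a plexin ligand, did not overlap between regions and was the only uncalled guidance gene of which this is true, with 65.3 to 76.3 CPM in dorsal and 51.5 to 61.0 CPM in ventral libraries (log2 fold change 0.28 ± 0.10, adjusted p = 0.216). Of the 4 class 6 genes SEMA6A, SEMA6B, SEMA6C and SEMA6D, SEMA6A came nearest to a call, at -0.52 ± 0.14 (adjusted p = 0.0548).

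The neuropilins NRP1 and NRP2, co-receptors for different secreted semaphorins, went in opposite directions. Levels of NRP1 were 61.4, 98.6 and 110.2 CPM in dorsal stress and 61.7, 124 and 101 CPM in dorsal control, and 52.2, 24.4 and 56.9 CPM in ventral stress and 26.8, 26.9 and 47.4 CPM in ventral control. NRP1 values spread widely within groups, yet the lowest dorsal library still exceeded the highest ventral one. Its log2 fold change came to 1.26 ± 0.28 (SE, edgeR adjusted p = 0.0296). In dorsal stress NRP2 stood at 51.5, 50.0 and 49.1 CPM and in dorsal control at 51.3, 51.7 and 45.8 CPM, against 80.5, 94.8 and 112 CPM in ventral stress and 79.3, 97.4 and 120.1 CPM in ventral control. The 6 dorsal values of NRP2 were tight, between 45.8 and 51.7 CPM, while the ventral ones ran from 79.3 to 120.1 CPM. For NRP2 the log2 fold change was -0.97 ± 0.13 (SE, edgeR adjusted p = 0.00320).

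Of 9 plexins, the signalling receptors for semaphorins, 1 was higher and 2 were lower in dorsal tissue. PLXNA4, which partners neuropilins in the response to secreted semaphorins, was the higher one. PLXNA4 had 227, 204 and 295 CPM in dorsal stress and 250.3, 243 and 212 CPM in dorsal control, against 144, 100.3 and 160.4 CPM in ventral stress and 124, 108 and 143 CPM in ventral control. No dorsal value was under 204 CPM and no ventral value was above 160.4 CPM. This gave a log2 fold change of 0.88 ± 0.15 (SE, edgeR adjusted p = 0.00906). PLXNC1, the receptor for SEMA7A, was lower. Levels of PLXNC1 were 15.3, 24.9 and 29.7 CPM in dorsal stress and 13.7, 19.9 and 21.2 CPM in dorsal control, and 50.9, 62.6 and 83.3 CPM in ventral stress and 33.9, 62.0 and 100.1 CPM in ventral control. So the ligand SEMA7A stood higher and its receptor PLXNC1 lower in dorsal than in ventral libraries. The log2 fold change of PLXNC1 was -1.67 ± 0.28 (SE, edgeR adjusted p = 0.00801). PLXND1, which binds SEMA3E without a neuropilin and is known from blood vessels and neurons, was lower in dorsal tissue as well. In dorsal stress PLXND1 stood at 42.7, 41.2 and 45.8 CPM and in dorsal control at 24.6, 28.3 and 31.0 CPM, against 54.1, 68.9 and 63.2 CPM in ventral stress and 46.3, 63.5 and 62.1 CPM in ventral control. Dorsal stress values lay between dorsal control and ventral values, with no overlap among the 3. Over both conditions its log2 fold change was -0.78 ± 0.13 (SE, edgeR adjusted p = 0.00754). The ligand SEMA3E had -0.09 ± 0.29 (adjusted p = 1.00). The remaining plexins, PLXNA1, PLXNA2, PLXNA3, PLXNB1, PLXNB2 and PLXNB3, had values from -0.34 to 0.20 with no call.

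Among the Slits, secreted repellents for Robo-bearing axons, SLIT2 was lower and SLIT1 higher in dorsal tissue. SLIT2 had 16.8, 22.6 and 32.9 CPM in dorsal stress and 18.1, 17.5 and 24.9 CPM in dorsal control, against 64.1, 68.4 and 113 CPM in ventral stress and 49.5, 74.3 and 115 CPM in ventral control. The highest dorsal value of SLIT2, 32.9 CPM, was under the lowest ventral one, 49.5 CPM. SLIT2 thus had a log2 fold change of -1.88 ± 0.26 (SE, edgeR adjusted p = 0.00347), a 3.67-fold lower level. Levels of SLIT1 were 261, 233 and 260.3 CPM in dorsal stress and 238, 231 and 228 CPM in dorsal control, and 201, 147 and 204 CPM in ventral stress and 165, 171 and 164 CPM in ventral control. The regions did not overlap for SLIT1, and its log2 fold change was small, 0.46 ± 0.11 (SE, edgeR adjusted p = 0.0419). SLIT3 had 0.37 ± 0.16 (adjusted p = 0.339). None of the 4 Robo receptors was called. In dorsal stress ROBO1 stood at 23.5, 29.8 and 48.3 CPM and in dorsal control at 25.4, 29.8 and 32.3 CPM, against 34.5, 32.2 and 64.3 CPM in ventral stress and 20.7, 28.0 and 61.2 CPM in ventral control. The regions overlapped for ROBO1, with a log2 fold change of -0.35 ± 0.30 (SE, edgeR adjusted p = 0.856). ROBO2 had -0.79 ± 0.36 (adjusted p = 0.381), ROBO3 -0.55 ± 0.67 and ROBO4, a Robo of blood vessels, 0.09 ± 0.40.

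Netrins and their receptors gave no call. NTN4 was the only netrin above 1 CPM in any library, with 25.9 to 58.3 CPM and a log2 fold change of 0.16 ± 0.22. NTN1, the classical attractant that binds DCC, stayed between 0.0962 and 0.954 CPM, and NTN3 between 0.0280 and 0.865 CPM. NTN5 had 0 counts in 6 of the 12 libraries and at most 0.337 CPM. The repulsive receptors UNC5A, UNC5B, UNC5C and UNC5D had log2 fold changes from -0.26 to 0.51, the highest for UNC5B (adjusted p = 0.164). DCC had -0.27 ± 0.70 (adjusted p = 1.00), with values from 0.433 to 6.47 CPM.

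Ephrins, the ligands of Eph receptors, were lower in dorsal tissue where they were called. EFNA5, a membrane-anchored ephrin that repels EphA-bearing axons in the mouse brain, showed the most negative difference among the 65 genes. EFNA5 had 2.89, 2.13 and 3.43 CPM in dorsal stress and 2.68, 2.18 and 3.71 CPM in dorsal control, against 8.36, 16.8 and 16.6 CPM in ventral stress and 11.9, 15.6 and 18.04 CPM in ventral control. Dorsal values did not exceed 3.71 CPM, and no ventral value was under 8.36 CPM. The log2 fold change was -2.36 ± 0.25 (SE, edgeR adjusted p = 0.000798), a 5.14-fold lower level. EFNB3, a transmembrane ephrin, was lower as well. Levels of EFNB3 were 67.3, 58.8 and 67.3 CPM in dorsal stress and 46.1, 61.3 and 64.2 CPM in dorsal control, and 104, 111 and 147 CPM in ventral stress and 69.3, 114 and 127 CPM in ventral control. The highest dorsal value, 67.3 CPM, lay just under the lowest ventral one, 69.3 CPM. Its log2 fold change was -0.88 ± 0.17 (SE, edgeR adjusted p = 0.0169). EFNA1, EFNA2, EFNA3 and EFNA4 ranged from -0.36 to 0.24 and were not called. EFNB1 had -0.33 ± 0.22 and EFNB2, which pairs with EPHB4 in vessels, -0.92 ± 0.34 (adjusted p = 0.211).

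Eph receptors split between the regions. EPHA8 and EPHA10 were lower in dorsal tissue, EPHA10 being a member of the family without kinase activity. In dorsal stress EPHA8 stood at 2.44, 1.37 and 1.31 CPM and in dorsal control at 1.61, 1.12 and 1.17 CPM, against 5.61, 7.31 and 4.98 CPM in ventral stress and 5.96, 5.90 and 5.07 CPM in ventral control. EPHA8 was at low levels throughout, and its highest dorsal value, 2.44 CPM, lay below the lowest ventral one, 4.98 CPM. This gave a log2 fold change of -1.95 ± 0.23 (SE, edgeR adjusted p = 0.00134). EPHA10 had 21.9, 20.2 and 22.0 CPM in dorsal stress and 18.2, 21.1 and 19.3 CPM in dorsal control, against 36.2, 34.5 and 37.0 CPM in ventral stress and 28.8, 40.2 and 34.2 CPM in ventral control. The 6 dorsal values of EPHA10 lay between 18.2 and 22.0 CPM, all below the ventral libraries. Its log2 fold change was -0.78 ± 0.12 (SE, edgeR adjusted p = 0.00562). EPHA7, a receptor for ephrins-A, was higher in dorsal tissue. Levels of EPHA7 were 62.5, 80.03 and 129.6 CPM in dorsal stress and 61.6, 116 and 75.0 CPM in dorsal control, and 40.8, 24.3 and 54.3 CPM in ventral stress and 16.2, 19.8 and 41.3 CPM in ventral control. Both regions varied widely for EPHA7 without overlap, and the log2 fold change was 1.45 ± 0.31 (SE, edgeR adjusted p = 0.0267). EPHA4, which binds ephrins of both classes, had 129 to 493 CPM in dorsal and 64.6 to 238 CPM in ventral libraries, with overlap, and was not called (1.02 ± 0.41, adjusted p = 0.267). EPHA1 and EPHA2 had 0.28 ± 0.58 and -0.04 ± 0.40.

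In the EphB class EPHB1 was higher and EPHB6, which lacks kinase activity, was lower in dorsal tissue. In dorsal stress EPHB1 stood at 28.1, 21.0 and 23.3 CPM and in dorsal control at 29.99, 27.5 and 28.0 CPM, against 18.5, 17.5 and 14.6 CPM in ventral stress and 20.6, 13.7 and 12.9 CPM in ventral control. For EPHB1 the lowest dorsal value, 21.0 CPM, lay just above the highest ventral one, 20.6 CPM, and the log2 fold change was 0.69 ± 0.16 (SE, edgeR adjusted p = 0.0323). EPHB6 had 9.60, 7.20 and 5.97 CPM in dorsal stress and 10.2, 6.66 and 6.88 CPM in dorsal control, against 15.7, 20.0 and 12.0 CPM in ventral stress and 19.8, 19.7 and 10.5 CPM in ventral control. Ventral library 3 was the lowest of its group for EPHB6 in both conditions, close to the highest dorsal value of 10.2 CPM. Its log2 fold change was -1.07 ± 0.23 (SE, edgeR adjusted p = 0.0258). EPHB2, EPHB3 and EPHB4 ranged from -0.17 to 0.18, with no call.

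**Figure D2:**
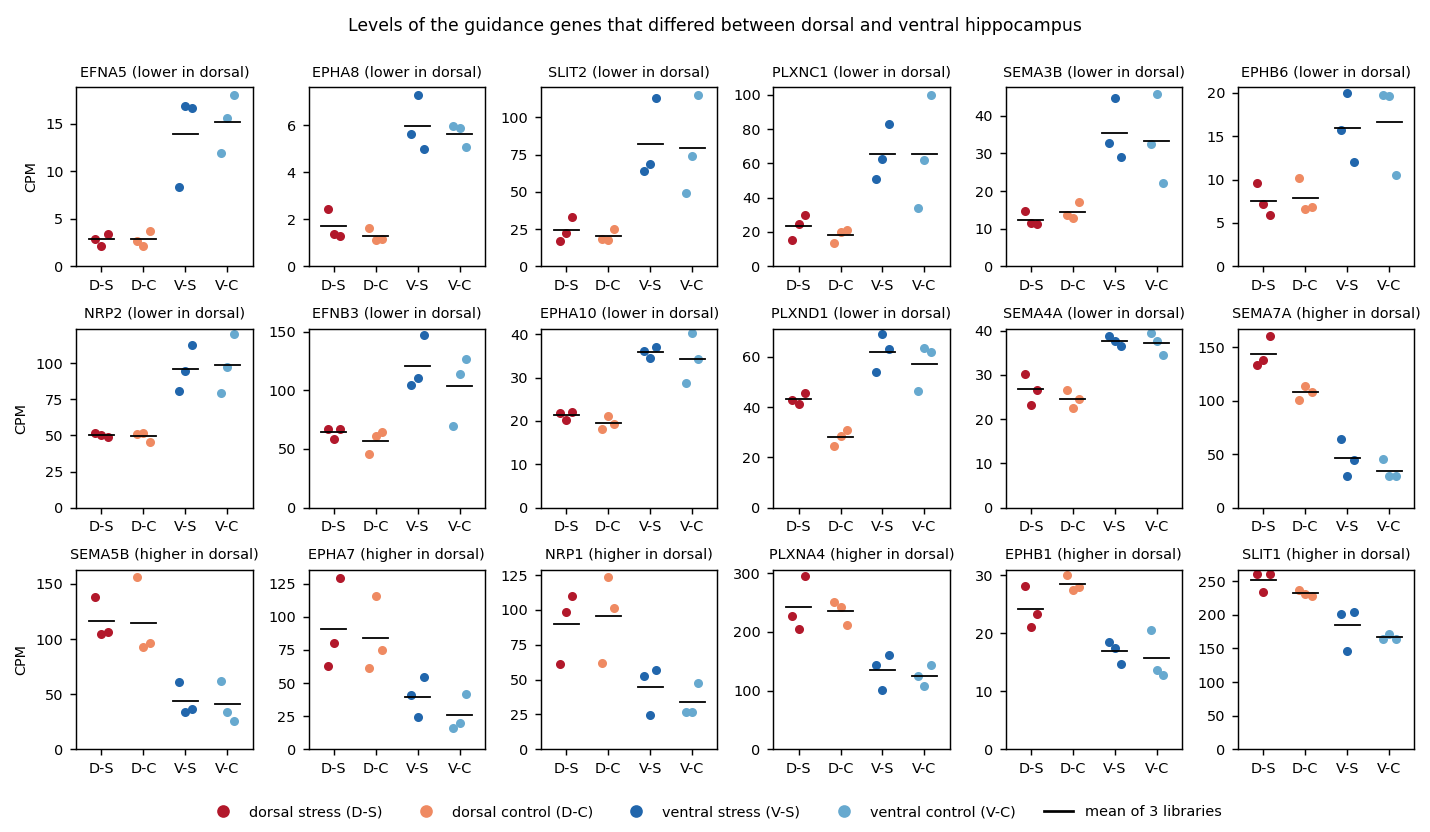
Level in CPM of the 18 called guidance genes in each library, in the order dorsal stress (D-S), dorsal control (D-C), ventral stress (V-S) and ventral control (V-C), with a line at the mean of 3 libraries. In each panel the 6 dorsal points lie on one side of the 6 ventral points.

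Without overlap between regions stood 19 of the 65 tested guidance genes (29.2%), the 18 called genes and SEMA4D, against 4.9% of all tested genes. For these 19 this implies separation within each condition as well. That looser rule, in one direction, was met by the same 19 guidance genes (29.2%) and by 6.37% of all tested genes. When each library was left out in turn, EFNA5, EPHA8, SEMA7A, NRP2, SLIT2, SEMA3B, EPHA10, PLXND1, PLXNC1, PLXNA4 and SEMA5B kept their calls (highest edgeR adjusted p = 0.0349, for SEMA5B). EFNB3 lost its call without dorsal stress 2 or ventral control 2 (highest adjusted p = 0.0615). EPHB6, EPHA7 and NRP1 lost theirs without dorsal stress 2 or 3, dorsal control 2 or 3, ventral stress 1 or 2, or ventral control 2 (highest 0.0814, 0.0826 and 0.0901). SEMA4A lost its call without any 1 of these 7 or without ventral stress 3 (highest 0.0890), EPHB1 without any library other than ventral control 1 (0.0957), and SLIT1 without any 1 of the 12 (0.108). The count of called guidance genes fell to 11 without dorsal stress 2 and to 11 without ventral control 2. The share called among all tested genes fell as well, from 4.51% to 2.3% and 2.51%.

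Marker lists of other cell types and of neighbouring tissue moved with region too. Meningeal fibroblast markers, with 5 of 6 genes lower, summed to 141 to 222 CPM in dorsal and 326 to 567 CPM in ventral libraries. Subiculum markers, with 4 of 5 lower, summed to 23.5 to 48.6 CPM against 109 to 219 CPM, and thalamus markers, with 3 of 4 lower, to 37.4 to 49.4 CPM against 68.1 to 205.5 CPM. Both of these lists hold SLC17A6, with 2.07 to 11.8 CPM in dorsal against 12.2 to 85.2 CPM in ventral libraries. CA1 markers, with 1 of 3 lower, summed to 89.99 to 169.6 CPM against 202 to 328 CPM. Within that list MPPED1 was called, with 43.4 to 73.5 CPM in dorsal against 116 to 191 CPM in ventral libraries, WFS1 overlapped, and FIBCD1 was not called and ran the other way, with 5.32 to 16.1 CPM in dorsal against 1.89 to 7.70 CPM in ventral libraries. Markers of inhibitory neurons, with 2 of 5 lower and SST at 0 counts in every library, summed to 238 to 274 CPM against 306 to 408 CPM. Choroid plexus markers, with 3 of 6 higher, summed to 382 to 2846 CPM in dorsal against 59.4 to 425 CPM in ventral libraries. TTR made up most of the dorsal sums, with 361 to 2806 CPM, against 32.5 to 413 CPM in ventral libraries. KCNJ13 overlapped between regions. KL was not called and ran the other way, with 0.597 to 6.46 CPM in dorsal against 1.97 to 25.4 CPM in ventral libraries. Oligodendrocyte markers, with 1 of 6 higher, summed to 6481 to 10645 CPM against 3691 to 8142 CPM. No list other than that of inhibitory neurons held a marker at 0 throughout. Endothelial markers, with 0 of 4 called, summed to 53.2 to 69.6 CPM in dorsal against 69.4 to 82.4 CPM in ventral libraries. Hippocampal and excitatory neuron markers, the 4 genes given above, had 1 called higher and a median log2 fold change of 0.80, and their sums did not overlap between regions. Of dentate granule cell markers DSP was lower, 1 of 4, with 3.68 to 12.8 CPM in dorsal against 11.4 to 31.5 CPM in ventral libraries, while PROX1 was not called and had 4.18 to 37.2 CPM in dorsal against 1.19 to 13.1 CPM in ventral libraries. Of striatum markers PENK and DRD1 were lower, 2 of 5, while DRD2, ADORA2A and PPP1R1B overlapped between regions and were not called. PPP1R1B had 71.3 to 129 CPM in dorsal against 43.1 to 91.8 CPM in ventral libraries. No marker of astrocytes, microglia, mural cells, oligodendrocyte precursors, ependymal cells, neocortex or CA3 was called.

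The 18 calls ended when the choroid plexus, meningeal or oligodendrocyte score was added as a covariate, as did nearly all calls in the whole table, of which 2, 0 and 1 were left. Region accounted for 71.2%, 87.6% and 67.5% of the variance of these scores, so that with 12 libraries score and region cannot be told apart. The median SE of the 18 genes grew by a factor of 2.18, 3.17 and 1.74. All 18 kept their sign in each fit, with a median of 106%, 52.5% and 78.7% of the log2 fold change left. An unadjusted edgeR p under 0.05 was left for 12, 1 and 13 of the 18, which had been picked by their calls without a score. Single genes ranged from 43.1% to 164%, from 10.9% to 108% and from 39.2% to 141%. With the meningeal score PLXND1 stood at -0.10 ± 0.38, PLXNA4 at 0.095 ± 0.44 and SEMA3B at -0.24 ± 0.52. The part of the other tissues listed above was not tested.

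The 78 other genes listed for the same pathways, signalling adaptors, adhesion proteins and cytoskeletal regulators, gave 8 calls of 76 tested, 3 higher and 5 lower in dorsal tissue, or 10.5%, against the 4.51% called among all tested genes (1.44% higher, 3.07% lower). DRAXIN and CNTN6 were not tested. NTNG1, a membrane-bound relative of the netrins, had the most negative value, -3.52 ± 0.32, edgeR adjusted p = 0.000452. It is also one of the subiculum markers above. Levels of NTNG1 were 5.77, 4.16 and 2.12 CPM in dorsal stress and 2.13, 3.04 and 3.56 CPM in dorsal control, and 17.8, 49.3 and 32.9 CPM in ventral stress and 45.6, 54.4 and 38.5 CPM in ventral control. GAP43, a growth cone protein, was lower as well (-2.11 ± 0.21, edgeR adjusted p = 0.000539). In dorsal stress GAP43 stood at 193, 139 and 123 CPM and in dorsal control at 159, 119 and 136 CPM, against 487, 818 and 573 CPM in ventral stress and 629.7, 805 and 429 CPM in ventral control. So were VAV2, an exchange factor that acts downstream of Eph receptors (-1.21 ± 0.13, edgeR adjusted p = 0.000870), RND1, a small GTPase that binds plexins (-0.93 ± 0.13, edgeR adjusted p = 0.00298), and LIMK1, the kinase of cofilin (-0.62 ± 0.14, edgeR adjusted p = 0.0283). MICAL2, an enzyme that oxidises actin, was higher (0.76 ± 0.13, edgeR adjusted p = 0.00864), as were ABLIM3, an actin-binding LIM protein (0.48 ± 0.11, edgeR adjusted p = 0.0378), and DSCAML1, an adhesion protein (0.61 ± 0.15, edgeR adjusted p = 0.0475). LIMK1, ABLIM3 and DSCAML1 lost their calls in 9, 10 and 11 of the 12 fits that left out a library (edgeR adjusted p up to 0.0902, 0.112 and 0.125). The lists of repulsive guidance molecules with myelin inhibitors, of L1 and contactin adhesion proteins, of FLRT proteins and of Slit-Robo adaptors gave 0 calls of 9, 9, 3 and 11 tested genes. The list of collapsin response mediators and MICAL proteins, which also held FES, FARP1, FARP2 and RND1, gave 2 calls of 12, MICAL2 and RND1. Of ephrin signalling adaptors 1 of 10 was called, of netrin signalling adaptors 1 of 7, and of the growth cone cytoskeleton 2 of 10. The list of other netrin family genes and netrin receptors gave 2 calls of 5, NTNG1 and DSCAML1.

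The regional differences were next taken within each condition. In stressed ewes 3 guidance genes were called of 65 (4.62%), SEMA7A higher and EFNA5 and EPHA8 lower in dorsal tissue, against 0.444% of all tested genes (0.0842% higher, 0.359% lower). An unadjusted p under 0.05 was found for 21 of 65 (32.3%), against 7.86% of all tested genes. In control ewes 6 were called (9.23%), SEMA7A higher and EFNA5, EPHA8, PLXND1, SLIT2 and NRP2 lower, against 1% of all tested genes (0.247% higher, 0.753% lower). Here 24 of 65 (36.9%) had an unadjusted p under 0.05, against 8.67% of all tested genes. EFNA5 differed by -2.31 ± 0.35 in stressed and -2.41 ± 0.35 in control ewes, SEMA7A by 1.64 ± 0.28 and 1.64 ± 0.28, and EPHA8 by -1.80 ± 0.32 and -2.11 ± 0.32 (edgeR adjusted p from 0.0138 to 0.0455). NRP2 differed by -0.93 ± 0.19 in stressed ewes, where it missed the threshold (adjusted p = 0.0742), and by -0.996 ± 0.19 in control ewes (0.0393). SEMA3B, at -1.52 ± 0.29, missed it in stressed ewes too (0.0594). In control ewes PLXND1 had -1.03 ± 0.19 (0.0307) and SLIT2 -1.98 ± 0.37 (0.0375).

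All 18 genes called over both conditions had the same sign in stressed and in control ewes. Their lack of overlap between regions fixed this in advance. The edgeR test of the difference between the conditions had an unadjusted p under 0.05 for 0 of the 18. Across the 65 genes the differences in stressed and in control ewes correlated at r = 0.919, against 0.746 across all tested genes. These values are across genes, which are not independent, and the libraries of the 2 comparisons come from different ewes. The counts within a condition rested on 3 libraries against 3 and moved with single libraries, as did the share called among all tested genes. In stressed ewes no guidance gene was called without dorsal stress 1, 2 or 3 or ventral stress 2 or 3, where 0.00549% to 0.0989% of all genes were called. There was 1 without dorsal control 1, 2 or 3 or ventral control 2 (0.247% to 0.275% of all genes), 5 without ventral control 1 (0.875%) and 6 without ventral control 3 (0.601%). In control ewes no guidance gene was called without dorsal control 1, 2 or 3 or ventral control 2 (0.011% to 0.148% of all genes). There were 2 without dorsal stress 2 (0.422%), 3 without ventral control 3 (0.623%) and 11 without ventral control 1 (1.76%).

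**Figure D3:**
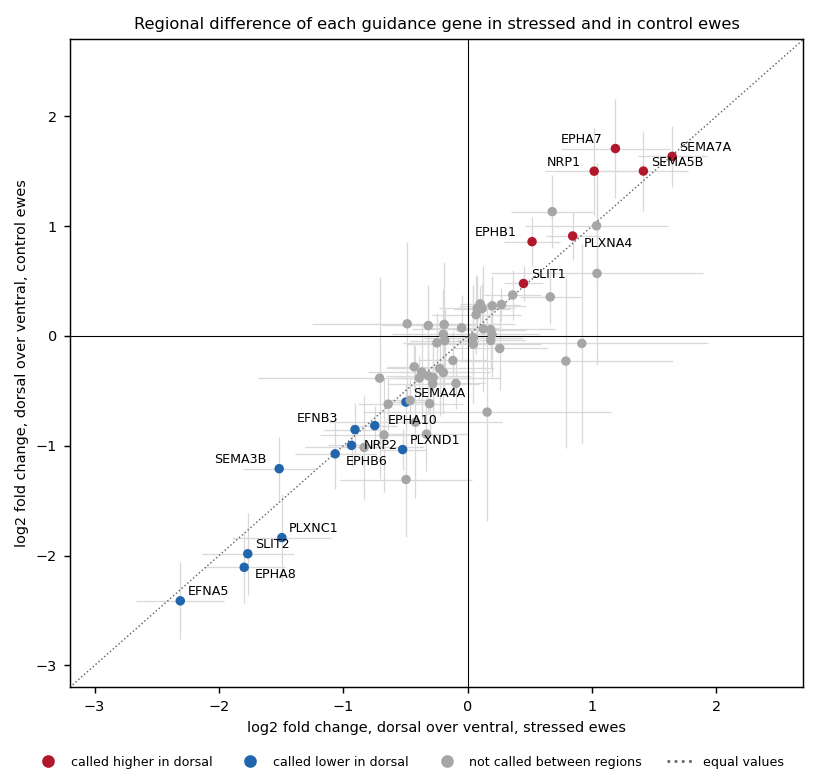
Log2 fold change of each of the 65 tested guidance genes, dorsal over ventral, in stressed ewes (horizontal) and in control ewes (vertical), with SE bars and a dotted line of equal values. The 18 coloured genes, called over both conditions, lie in the quadrants of equal sign, as their lack of overlap between regions requires.

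Stress against control gave no called guidance gene in either region. In dorsal hippocampus edgeR, DESeq2 and limma-voom called 0 of 65, with edgeR calling 0% of all tested genes, and 1 gene (1.54%) had an unadjusted p under 0.05, against 0.854% of all genes. That gene was PLXND1, with 42.7, 41.2 and 45.8 CPM in dorsal stress against 24.6, 28.3 and 31.0 CPM in dorsal control libraries. The groups did not overlap, and the log2 fold change was 0.63 ± 0.19 (unadjusted p = 0.00619, edgeR adjusted p = 1.00). All dorsal control libraries were deeper than all dorsal stress libraries, and with counts thinned to one depth the log2 fold change was 0.66 ± 0.19. The next smallest p-values belonged to SEMA3G, a secreted semaphorin of blood vessels (0.40 ± 0.21), SEMA7A (0.42 ± 0.27), EPHB4 (-0.47 ± 0.37) and EFNA1 (-0.34 ± 0.27), with unadjusted p from 0.0894 to 0.246. Stress and control libraries did not overlap for SEMA7A and EFNA1 either. SEMA7A had 133 to 161 CPM in dorsal stress against 101 to 113 CPM in dorsal control libraries, and EFNA1 had 16.1 to 21.5 CPM against 22.0 to 27.5 CPM. With PLXND1 these are 3 of 65 genes (4.62%), against 5.13% of all tested genes, a share near the background.

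In ventral hippocampus the 3 tools again called 0 guidance genes, with edgeR calling 0% of all tested genes, and 0 of 65 had an unadjusted p under 0.05, against 0.797% of all genes. The smallest p-values were those of EFNA1 (-0.56 ± 0.27), SEMA3G (0.40 ± 0.21), SEMA7A (0.41 ± 0.27), EPHA1 (-1.24 ± 0.83) and UNC5B (-0.35 ± 0.25), with unadjusted p from 0.0657 to 0.179. SEMA3G was the 1 gene of 65 (1.54%) without overlap, at 56.8 to 65.7 CPM in ventral stress against 42.3 to 48.8 CPM in ventral control libraries, where 2.86% of all tested genes did not overlap. EPHA1 stayed at or under 1.08 CPM in every library, and its log2 fold change was 1.19 ± 1.24 without ventral control 1 and 3, where that of UNC5B was 0.16 ± 0.25. That fit leaves 1 ventral control library, which is assumed to vary like the libraries of the other groups.

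Averaged over both regions, stress gave 0 called guidance genes by edgeR, DESeq2 and limma-voom and 0% of all tested genes by edgeR, and 3 had an unadjusted p under 0.05 (4.62%, against 1.73% of all genes). They were PLXND1 (0.37 ± 0.13, unadjusted p = 0.0160), SEMA3G (0.40 ± 0.15, 0.0225) and EFNA1 (-0.45 ± 0.19, 0.0413). SEMA7A (0.41 ± 0.19) and SEMA4C, a plexin ligand (0.28 ± 0.20), followed, with 0.0540 and 0.191. The stress effects differed between regions for 0 guidance genes by the 3 tools, at 0% of all genes by edgeR and 0 with an unadjusted p under 0.05. The smallest p was that of PLXND1, whose stress effect was larger in dorsal than in ventral tissue by 0.51 ± 0.26 (unadjusted p = 0.0761). SEMA3F (0.56 ± 0.47), SEMA3A (0.81 ± 0.74), EPHB1 (-0.34 ± 0.31) and PLXNA2 (0.34 ± 0.33) came next, with 0.257 to 0.330.

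Among the 60 guidance genes with a mean log2 CPM of at least 1, stress effects ran from -0.47 (EPHB4) to 0.63 (PLXND1) in dorsal and from -0.56 (EFNA1) to 0.63 (EPHA7) in ventral tissue, with a median SE of 0.32 and 0.31. The median size regardless of sign over the 65 genes was 0.13 in dorsal and 0.17 in ventral tissue, against 0.17 and 0.17 over all tested genes. Over the 18 genes called between regions the stress effects lay between -0.24 and 0.63 in dorsal and between -0.12 and 0.63 in ventral tissue. With such errors a missed threshold does not show that stress left these genes as they were.

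**Figure D4:**
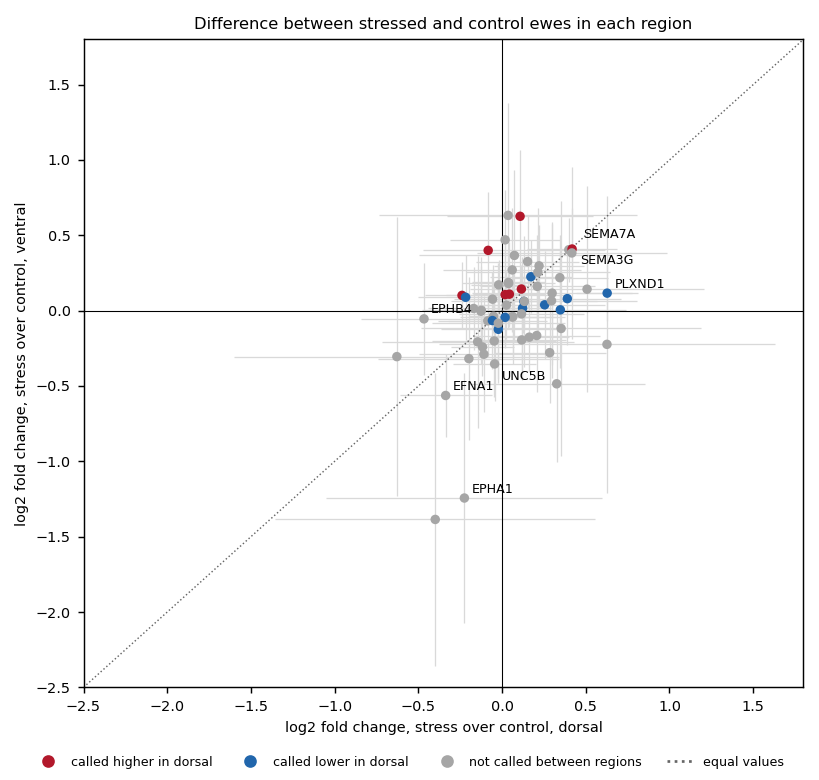
Log2 fold change of each of the 65 tested guidance genes, stress over control, in dorsal (horizontal) and ventral hippocampus (vertical), with SE bars and a dotted line of equal values. No gene was called in either region, and the genes with the smallest p-values in either region are named, among them PLXND1 at 0.63 in dorsal tissue.

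Within groups, libraries were spread along a main axis that held 66.1% of the variance within groups over all tested genes. Ventral control 1 and ventral control 3 lay farthest apart on it, at -1.502 and 1.74 in units of its SD. Guidance genes were spread along this axis about as other genes were: 25 of 65 (38.5%) had at least 80% of their within-group variance on it, against 40.9% of all tested genes. DCC varied most, with a within-group SD of 1.32 on the log2 scale. DCC had 1.14, 1.93 and 4.58 CPM in dorsal stress and 0.906, 2.43 and 1.56 CPM in dorsal control, against 1.47, 0.632 and 4.65 CPM in ventral stress and 0.433, 0.992 and 6.47 CPM in ventral control. Within each group the highest and lowest DCC libraries differed by 1.36 to 3.71 on the log2 scale. Toward the same end of the axis lay, among others, SEMA3C, SEMA3D, EPHA4, ROBO2 and EFNB2, with slopes of 0.79, 0.69, 0.66, 0.58 and 0.51 log2 units per SD. Levels of EPHA4 were 175, 325 and 493 CPM in dorsal stress and 129, 344 and 270.4 CPM in dorsal control, and 165, 81.6 and 238 CPM in ventral stress and 64.6, 89.5 and 217 CPM in ventral control. ROBO4 (-0.66), EFNA4 (-0.59), UNC5A (-0.45) and PLXNB1 (-0.43) were among those that ran the other way. In dorsal stress ROBO4 stood at 19.1, 11.4 and 8.09 CPM and in dorsal control at 23.4, 8.43 and 10.9 CPM, against 11.6, 15.8 and 8.05 CPM in ventral stress and 23.8, 12.0 and 5.01 CPM in ventral control. The called genes NRP2, SLIT1, EPHA10 and PLXND1 had slopes of 0.10, 0.03, 0.05 and 0.08 log2 units per SD. Other called genes followed the axis more closely. EPHA7 (slope 0.46), PLXNC1 (0.42), NRP1 (0.39) and SLIT2 (0.35) had 86.5%, 88.4%, 74.9% and 75.8% of their within-group variance on it, and EPHB6 (-0.33) and SEMA5B (-0.29) had 91.5% and 56.1%. Without ventral control 1 and 3 together, which leaves 1 ventral control library, 17 guidance genes were called between regions, of which 15 were among the 18. NRP1, SEMA4A and SLIT1 were lost, and SEMA4F and UNC5B were gained.

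**Figure D5:**
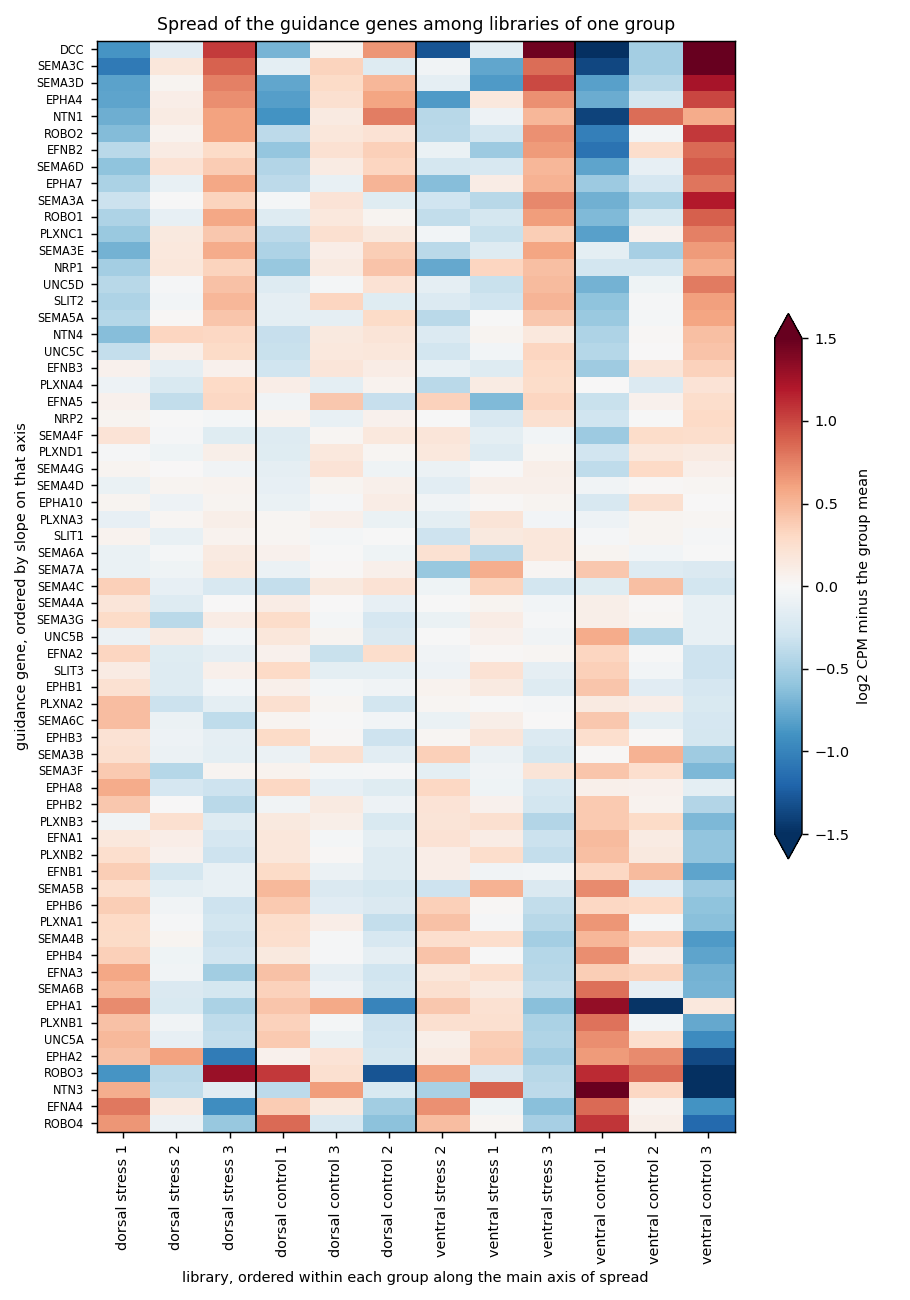
Deviation of each library from its group mean in log2 CPM for the 65 tested guidance genes (rows, ordered by their slope on the main axis of spread within groups) in the 12 libraries (columns, ordered along that axis within each group). Colours saturate at 1.5, and DCC and SEMA3C at the top and ROBO4 and EFNA4 at the bottom are at opposite ends of the axis, most clearly in ventral control 1 and 3.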

How the data were processed

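Raw read counts per gene for 12 libraries of polyadenylated RNA, made with a stranded mRNA kit per the labels, were analysed as the authors deposited them. The submitters' processing notes name featureCounts 2.0.0 as a counter, the aligners TopHat2 2.1.1 and Bowtie2 2.3.5.1, and SAMtools 1.9, bcl2fastq 2.20 and FastQC. Build, annotation and strand setting are not given in the sources, so a gene and an antisense neighbour may share reads, and no coordinates or sequences are printed. Names that were placeholders were looked up in RefSeq (assembly ARS-UI_Ramb_v3.0), which replaced 471 of them.

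In R 4.3.3, genes were filtered with edgeR 4.0.16 (filterByExpr, minimum count 10) and scaled by TMM, and the quasi-likelihood test was run on all 12 libraries, with every one of the 4 groups having its own mean. Benjamini-Hochberg adjustment covered 17806 genes. CPM are counts scaled to TMM-corrected library size. The fit was run on simulated counts drawn independently for each gene and library. These lack the spread shared among genes in the real libraries, so error rates under such spread were not tested. Levels were not compared between genes, since exon lengths were not used. The guidance genes, pathway lists and marker lists were chosen with earlier results of these data known.

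Values are given for guidance genes called in any comparison, for PLXND1, SLIT2 and ROBO1, for the 5 smallest p-values where fewer than 5 genes were called, and for called pathway genes. Other guidance genes given with values of their own, such as SEMA4D or DCC, were singled out after their values were seen.

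Replicate numbers recur in all groups. Between regions of one condition, deviations of same-numbered libraries correlated at r = -0.233 to 0.761 over 6 pairs. Other-numbered libraries between regions of one condition correlated at r = -0.742 to 0.679. The ranges overlap, so the number is not shown to pair the regions, and pairing is not excluded. Within a region, same-numbered stress and control libraries, which are pools of different ewes, correlated at r = 0.241 to 0.787 over 6 pairs. Other-numbered stress and control libraries of a region correlated at r = -0.668 to 0.568. These ranges overlap, so the number is not shown to pair stress with control libraries either. Blocking on the number left the stress counts at 0. The libraries are separate pools per the labels, and no 2 agreed within sampling noise. Alternatives were RLE size factors, other filters, DESeq2 1.42.0, limma-voom (limma 3.58.1), replicate blocks, covariates, thinned counts and leaving out libraries.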

Additional observations from a re-analysis of the deposited data

How the results depend on the processing

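Over both conditions 18 guidance genes were called between regions, with 4.51% of all genes. The count stayed at 18 with RLE size factors (4.54% of all genes), a filter of 1 CPM in 3 libraries (4.87%) and limma-voom (4.14%). It became 15 without a filter (2.84%), 22 with DESeq2 (6.99%) and 17 with thinned counts (4.42%). When single libraries were left out, 11 to 20 guidance genes were called (2.3% to 6.01% of all genes). With the first residual factor as a covariate, 34 were called over both conditions, 23 in stressed ewes and 23 in control ewes, while 21.1%, 8.92% and 11.2% of all genes were called (4.51%, 0.444% and 1% as reported). For stress over both regions 2 were called, EFNA1 (-0.43 ± 0.09, edgeR adjusted p = 0.0317) and PLXND1 (0.38 ± 0.09, 0.0496), where 2.3% of all genes were called. This factor is the main axis of spread within groups, taken from these same counts. It removes spread from every comparison, and the p-values do not allow for its choice from the data, so these added calls are not independent evidence. The other alternatives run on the stress comparisons called 0 guidance genes, the replicate block within condition having been run only for the difference of the stress effects. With the choroid plexus, meningeal or oligodendrocyte score, 0 were called between regions over both conditions, 0 in stressed and 0 in control ewes.

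Against 3 calls in stressed and 6 in control ewes, DESeq2 gave 11 and 16 (2.62% and 3.35% of all genes), limma-voom 1 and 6 (0.152% and 1.08%), and leaving out ventral control 1 and 3 together 5 and 0 (0.762% and 0.245%). The last fit leaves 1 ventral control library, assumed to vary like those of the other groups. Single libraries left out gave 0 to 6 in stressed and 0 to 11 in control ewes (0.00549% to 0.875% and 0.011% to 1.76%). With a replicate block on the number over all groups, 22 were called over both conditions, 10 in stressed and 14 in control ewes. Of all genes 7.72%, 1.76% and 2.47% were then called. With the replicate block within condition the guidance genes called were 19, 2 and 7 (4.62%, 0.32% and 0.876% of all genes). The 2 in stressed ewes, SEMA5B and SLIT2, share none with the 3, whose edgeR adjusted p became 0.0526 (EFNA5), 0.0545 (SEMA7A) and 0.0802 (EPHA8). In control ewes NRP2 was lost (0.0880). The numbers are not shown to pair the regions, and 6 of 12 libraries were closest to their own number. Causes of these shifts were not tested.

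Of 1433 single-gene values recomputed, 1130 kept their direction and their status as called or uncalled, 285 lost the call, 13 gained it and 5 reversed. The 1130 include values that were uncalled in both fits, as in the stress comparisons. These 5 were uncalled under the alternative: ROBO1 between regions at 0.34 with the oligodendrocyte score, DSCAML1 at -0.20 with the meningeal score, ventral stress effects of EPHA1 at 1.19 and of UNC5B at 0.16 without ventral control 1 and 3 (again 1 ventral control library), and the difference of stress effects of SEMA3A at -0.072 without ventral control 3 (range without single libraries -0.072 to 1.28). The meningeal and oligodendrocyte scores and leaving out those 2 libraries together were chosen after seeing the data. Depth limits the low genes most: 1 CPM is 12.3 counts in the shallowest library.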

Other observations

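Further EphA receptor genes stood in the table under placeholder names and were not counted among the 66 guidance genes, since the choice went by the symbols of the table. RefSeq names these 3 rows EPHA3, EPHA5 and EPHA6. EPHA3 had 1.84 to 9.07 CPM in dorsal and 3.22 to 23.2 CPM in ventral libraries, with a log2 fold change of -1.42 ± 0.58 (SE, edgeR adjusted p = 0.289). EPHA5 had 22.7 to 82.8 CPM in dorsal and 17.2 to 90.2 CPM in ventral libraries, with -0.11 ± 0.47. EPHA6 had 1.69 to 8.58 CPM in dorsal and 3.41 to 10.2 CPM in ventral libraries, with -0.44 ± 0.46. The regions overlapped for each of the 3, and none was called in any of the 7 comparisons.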
